A study of Mus musculus with 16 samples.

Results

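The 10 genes described here encode the enzymes that switch the pyruvate dehydrogenase complex off and on, and the subunits of the complex itself. They are the kinases Pdk1, Pdk2, Pdk3 and Pdk4, the phosphatases Pdp1 and Pdp2, and the subunits Pdha1, Pdhb, Dlat and Pdhx. They were chosen by symbol from the platform annotation, and all 10 were measured, among 22180 genes with 1 annotated symbol. Each gene had a single probe set except Pdk1, for which the brighter of its probe sets was used.

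Pyruvate dehydrogenase stands at the mitochondrial branch point where pyruvate, made from glucose, becomes acetyl-CoA. The reaction cannot be reversed in mammals, so it commits carbon from carbohydrate to oxidation or, in fat, to the making of fatty acids. The kinases phosphorylate the E1 alpha subunit and stop the enzyme, and the phosphatases remove the phosphate and restart it. Pdk4 is well known as a kinase gene that rises in fasted muscle, heart and liver, where it spares glucose.

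The samples were gonadal white adipose tissue from male C57BL/6 mice aged 3 to 4 months, with no genetic change or drug given in the labels. In the fed group (8 samples) the mice had free access to food, and in the fasted group (8 samples) food had been withdrawn for 16 hours. All tissue was taken in the morning, and 100 ng of total RNA per sample was labelled for Affymetrix whole-transcript arrays. Whether 1 mouse gave 1 sample is not stated, and the p-values therefore rest on the spread among samples, which may be technical in part.

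Values are on a log2 scale after RMA, which brings the arrays to a common distribution, so each difference is relative to the other transcripts on the arrays. Any 2 arrays correlated with an r of 0.966 to 0.993 across genes. Of 8 adipocyte markers, Adipoq, Fabp4, Lipe and Pparg did not pass the test, Cidec and Aqp7 rose, and Plin1 and Lep fell; the mean log2 level of the list was 10.69 to 10.98 in fed and 10.46 to 10.75 in fasted samples. Of 10 skeletal muscle markers, 9 stood under 4 on the log2 scale and were not called, and Acta1 rose by 2.67. The liver list ranged from 5.98 to 8.78 in fed and from 6.32 to 8.19 in fasted samples, with Apoc3 and Cyp2e1 of its 12 genes higher. Ciliated epithelium markers were highest in fed replicate 2 at 5.15 and fasted replicate 7 at 4.71, against 2.70 to 3.45 in the other samples, and fed replicate 3 had the highest liver level at 8.78, with fed replicate 2 next at 8.55. Results are also given without these 3 samples, fed replicates 2 and 3 and fasted replicate 7, where they bear on a call or a count. Fed replicate 4, with a liver level of 8.36, was kept. Of the remaining lists, none of 5 brown adipocyte, 5 epididymis, 4 male germ cell and 1 red blood cell markers was called. Krt19 of 5 mesothelium markers fell and Pecam1 and Tek of 6 endothelial markers rose, with the calls of Krt19 and Tek lost without the 3 samples (limma adjusted p = 0.143 and 0.0859), and of 6 macrophage markers Cd68 and Cd163 rose and Mrc1 fell.

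Fasting raised 2 of the 4 kinases and lowered all 4 subunits of the complex. Genes with a limma p-value below 0.05 after Benjamini-Hochberg adjustment across the 22180 genes are termed called. By that rule 7 of the 10 genes changed, 2 upward and 5 downward. Over all genes 19.2% were called, 8.49% higher and 10.7% lower. The counts of 2 and 5 were the same without the 3 samples, where 7.23% of all genes were called higher and 10.3% lower. In 5 of the 10 genes the fed and fasted samples did not overlap, 2 of them higher and 3 lower, as in 6.48% of all genes (3.03% higher and 3.45% lower). Without the 3 samples the groups did not overlap in 7 of the 10 genes, 2 higher and 5 lower, with Pdk3 and Pdha1 added. Over all genes, 3.94% were then higher and 5.46% lower without overlap. The overlap of Pdk3 had come from fed replicate 3 and that of Pdha1 from fed replicate 2, both left out here. The added genes are therefore no separate evidence.

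**Figure D1:**
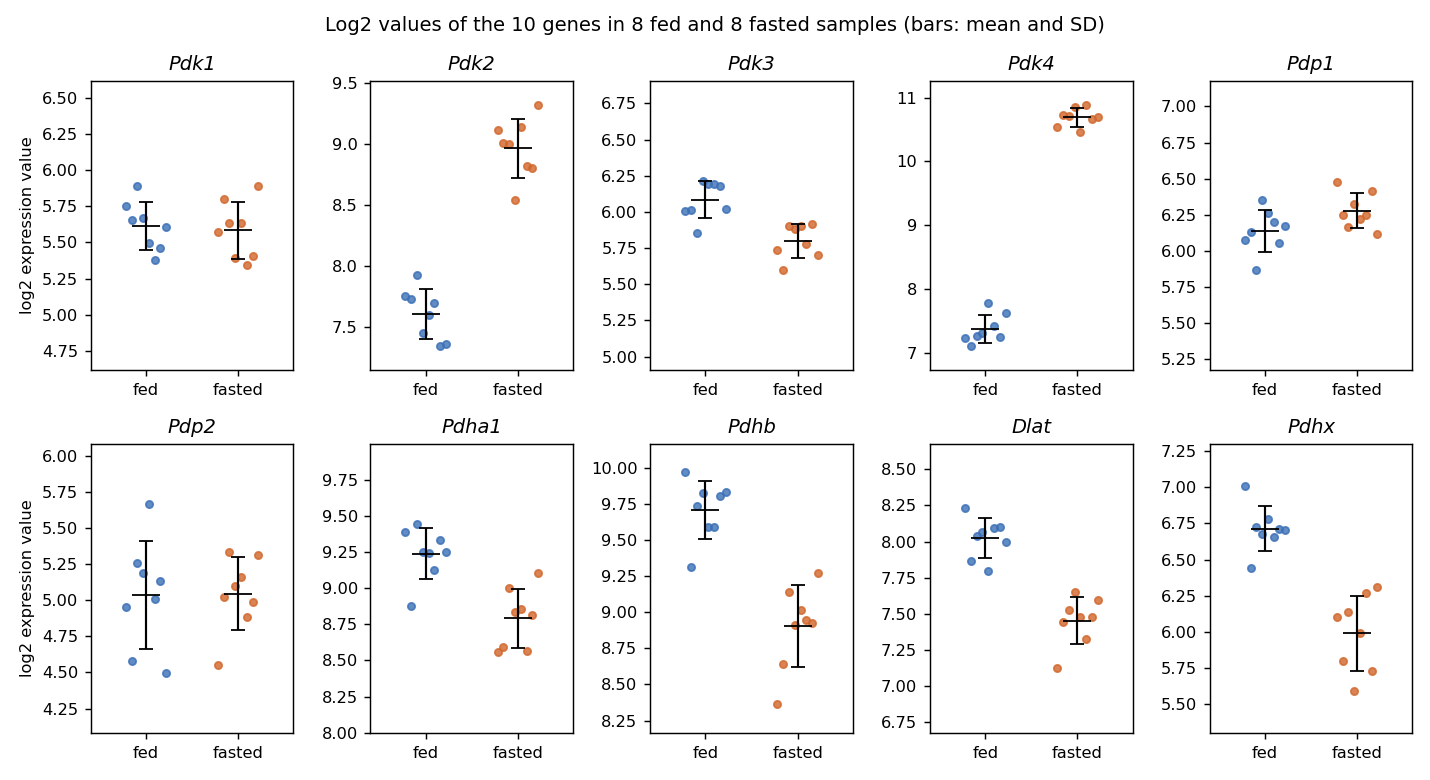
Log2 expression value (vertical axis, each panel with its own range) of the 10 genes in 8 fed (blue) and 8 fasted (orange) samples; points are samples, and black bars give the mean and SD. Pdk4 and Pdk2 were higher in every fasted sample than in any fed sample, and Pdhb, Dlat and Pdhx were lower.

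The stretches of DNA just before the start sites of the kinases that rose, and of Pdhx as a subunit that fell, are given first because these genes moved in opposite directions. They are the 250 bases before the RefSeq start on build GRCm38.p6, minus strand in all 3 cases, at chr6:5496279-5496528 for Pdk4, chr11:95041372-95041621 for Pdk2 and chr2:103073514-103073763 for Pdhx. Of the 2 starts listed for Pdk2, only the one nearest the outermost start of the gene was used. Capitals mark matches to the E-box CACGTG, the CCAAT box (CCAAT or its complement ATTGG) and the GC box GGGCGG (or CCGCCC).
Pdk4: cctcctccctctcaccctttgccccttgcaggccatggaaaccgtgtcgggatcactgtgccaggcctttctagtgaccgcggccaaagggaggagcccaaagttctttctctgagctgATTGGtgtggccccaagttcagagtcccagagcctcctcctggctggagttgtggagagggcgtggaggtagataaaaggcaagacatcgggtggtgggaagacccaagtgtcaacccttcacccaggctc
Pdk2: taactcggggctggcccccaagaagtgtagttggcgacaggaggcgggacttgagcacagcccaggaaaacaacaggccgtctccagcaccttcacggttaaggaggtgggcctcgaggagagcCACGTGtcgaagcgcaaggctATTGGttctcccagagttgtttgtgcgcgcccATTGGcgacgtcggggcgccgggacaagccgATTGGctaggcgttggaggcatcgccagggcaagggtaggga
Pdhx: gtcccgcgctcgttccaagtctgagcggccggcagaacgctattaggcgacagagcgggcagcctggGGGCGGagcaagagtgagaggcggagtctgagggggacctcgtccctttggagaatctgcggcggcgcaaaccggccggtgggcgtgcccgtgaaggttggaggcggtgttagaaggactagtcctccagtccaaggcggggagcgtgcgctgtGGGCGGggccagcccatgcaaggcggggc

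The Pdk4 stretch held 1 CCAAT box, 131 to 127 bases before the start, and no other match. The Pdk2 stretch held 3 CCAAT boxes and 1 E-box, and that of Pdhx 2 GC boxes, at 183 to 178 and 29 to 24 bases before the start. Motifs were searched on both strands in 32851 promoter entries, and their shares among all of these were 33.8% for the CCAAT box, 32.7% for the GC box and 6.02% for the E-box. The forkhead motif GTAAACA (3.17% of entries), the nuclear receptor core motif AGGTCA (14.0%) and the glucocorticoid receptor core motif AGAACA (16.1%) had 0 matches in the windows of the 9 genes with an entry. Among those 9 windows, the CCAAT box was in 5, the GC box in 6 and the E-box in 2, those of Pdk2 and Pdp2. The CCAAT box was not limited to genes that rose. Pdhb, the subunit that fell furthest, held 3, and Pdk3, which also fell, held 1. The GC content of the 9 windows ran from 58.8% (Pdk4) to 68.4% (Pdhx), above the median of 52.4% over all entries. The shares over all entries are therefore not matched for base content. A match describes these letters only and shows no binding.

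Among the kinases, Pdk4 and Pdk2 rose and Pdk3 fell. The 8 fed samples had Pdk4 at 7.10 (lowest), 7.28 (median) and 7.77 (highest) on the log2 scale, and the 8 fasted samples at 10.46, 10.70 and 10.88. Fasted values therefore began above the highest fed sample, fed replicate 5. The difference was 3.32 (SE 0.094, limma adjusted p = 3.56e-14), which is 10.01-fold.

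Pdk2 is the kinase found in most tissues. Its log2 values in fed samples were 7.35 (lowest), 7.65 (median) and 7.92 (highest), and in fasted samples 8.54, 9.003 and 9.32. The groups did not overlap, with fasted replicate 4, the lowest of its group, above fed replicate 3, the highest of its own. Pdk2 was 2.56-fold higher in fasted samples, a log2 difference of 1.36 (SE 0.11, limma adjusted p = 5.32e-08). Without the 3 samples it was 1.46 (SE 0.12).

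Pdk3 went the other way, by a small step. Its fed values ran from 5.86 through a median of 6.10 to 6.21, and its fasted values from 5.60 through 5.83 to 5.92. The groups overlapped through fed replicate 3, the lowest fed sample, which lay below fasted replicates 3, 4, 5 and 7. The log2 difference was -0.28 (SE 0.070, limma adjusted p = 0.00684). Without the 3 samples, fed replicate 3 among them, it was -0.35 (SE 0.075) and the groups no longer overlapped.

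Pdk1, a kinase gene that is known to respond to low oxygen, did not pass the test. Its fed samples lay between 5.38 and 5.89 with a median of 5.63, and its fasted samples between 5.34 and 5.89 with a median of 5.60. The log2 difference was -0.028 (95% interval -0.22 to 0.16, limma adjusted p = 0.896). The dimmer probe set of Pdk1 had means of 2.38 ± 0.24 and 2.25 ± 0.22 (SD, n = 8 per group) in fed and fasted samples. It was not called either (limma adjusted p = 0.511 over the 23521 probe sets with 1 symbol).

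The kinases were next compared with each other, array by array, since a gene past the threshold and another that misses it are not thereby shown to differ. The change of Pdk4 exceeded that of Pdk2 by 1.96 on the log2 scale (SE 0.18), that of Pdk1 by 3.35 (SE 0.15) and that of Pdk3 by 3.61 (SE 0.10). In each of the 3 pairs the exact permutation test (two-sided, n = 8 per group) gave p = 0.000155, before and after adjustment over the pairs, the smallest value that this design allows. These are differences between changes and say nothing about which kinase transcript was more abundant, because probe sets differ in brightness.

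Both phosphatases missed the threshold. Pdp1, the calcium-stimulated form, had log2 values of 5.87 to 6.35 in fed samples (median 6.15) and 6.12 to 6.48 in fasted samples (median 6.25). The groups overlapped, with a difference of 0.14 (95% interval -0.016 to 0.29, limma adjusted p = 0.232). Pdp2, the second phosphatase of the complex, had log2 medians of 5.07 and 5.06 in fed and fasted samples. Its fed samples were widely spread, from 4.496 to 5.67, and enclosed the fasted range of 4.55 to 5.33. Its difference of 0.0076 had a 95% interval of -0.30 to 0.32 (limma adjusted p = 0.985), and values within that interval remain possible.

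All 4 subunits fell. Pdhb, the beta subunit of E1, the pyruvate-decarboxylating component, fell furthest, 1.74-fold. Its log2 values were 9.31 (lowest), 9.77 (median) and 9.97 (highest) in fed samples and 8.36, 8.94 and 9.27 in fasted samples. The groups did not overlap, although fed replicate 2 and fasted replicate 8 lay close to each other at their shared edge. The log2 difference was -0.80 (SE 0.12, limma adjusted p = 5.67e-05).

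Pdhx, the E3-binding protein that anchors dihydrolipoyl dehydrogenase to the core, had fed values of 6.44, 6.71 and 7.01 (lowest, median and highest, log2 scale) and fasted values of 5.59, 6.05 and 6.31. No fasted sample reached the lowest fed sample, again replicate 2. The difference of -0.72 (SE 0.10, limma adjusted p = 4.88e-05) is 1.65-fold.

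Dlat, the E2 acetyltransferase that forms the core of the complex, had fed values of 7.79, 8.05 and 8.23 and fasted values of 7.12, 7.48 and 7.65 on the log2 scale. The groups did not overlap, and fasted replicate 1 was the lowest sample. Dlat was 1.48-fold lower in fasted samples (log2 difference -0.57, SE 0.080, limma adjusted p = 3.83e-05).

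Pdha1, the X-linked E1 alpha subunit that carries the phosphorylated serines, had the smallest fall of the 4, at 1.36-fold. Its log2 values were 8.88, 9.25 and 9.44 in fed samples and 8.56, 8.82 and 9.11 in fasted samples. The groups overlapped: fed replicate 2, at 8.88, lay below fasted replicates 3 and 8, at 8.998 and 9.11. The log2 difference was -0.45 (SE 0.095, limma adjusted p = 0.00196), and without the 3 samples it was -0.48 (SE 0.098) with no overlap. In such bulk tissue, fewer cells of a type and less RNA per cell cannot be told apart.

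The falls of the 4 subunits were compared in 6 pairs. Pdhb fell by more than Pdha1, its partner in E1, by 0.35 on the log2 scale (SE 0.068, exact permutation p = 0.000466, adjusted p = 0.0028 over the 6 pairs, two-sided, n = 8 per group). The other 5 pairs missed the threshold after adjustment, with exact permutation adjusted p between 0.0508 for Pdhb against Dlat and 0.563 for Pdhb against Pdhx. Those 5 differences of change had sizes from 0.081 to 0.27, with SE from 0.073 to 0.13.

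Within a group, single samples stood low or high for several subunits. Fed replicate 2 deviated from its group mean by -0.39, -0.36, -0.27 and -0.15 for Pdhb, Pdha1, Pdhx and Dlat, and it was also the sample with the highest ciliated epithelium level and, at 10.69, the lowest adipocyte marker level of the fed group. Fasted replicate 1 deviated by -0.54, -0.33 and -0.23 for Pdhb, Dlat and Pdha1, but by 0.11 for Pdhx, and had the highest macrophage marker level of all 16 samples at 9.36. Fasted replicates 5 and 7 are given beside these. Fasted replicate 7, with a ciliated epithelium level of 4.71, deviated by 0.025, 0.024 and 0.027 for Pdha1, Pdhb and Dlat, and by -0.26 for Pdhx. The adipocyte marker level was 10.46 in both fasted replicates 1 and 5, while their macrophage marker levels were 9.36 and 8.73. Replicate 5 deviated by 0.11, 0.068, 0.026 and 0.0018 for Pdhb, Pdha1, Dlat and Pdhx. The part of other cells in these levels was not tested. Fasted replicate 8 was above its group mean for all 4 subunits, as were fed replicates 1 and 3 and fasted replicates 3 and 5. Some of these deviations were very small, such as those of Pdhx in fed replicate 3 (0.0095) and fasted replicate 5 (0.0018). Fasted replicate 2 was below for all 4, though only by a deviation of -0.0086 for Dlat.

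**Figure D2:**
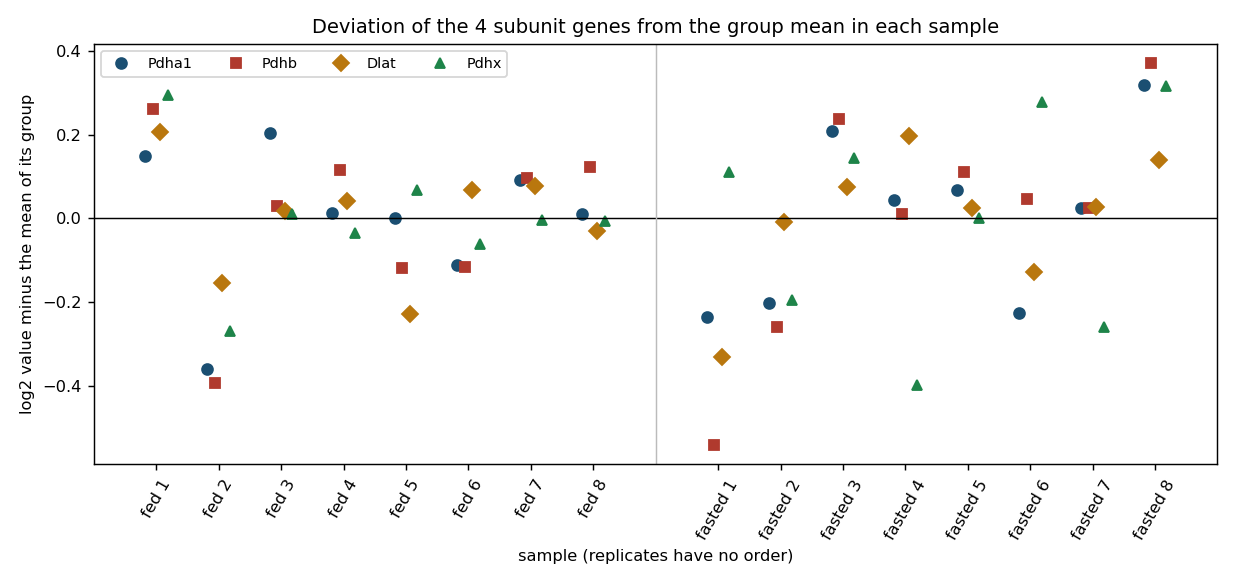
Log2 value minus the mean of its group (vertical axis) for Pdha1, Pdhb, Dlat and Pdhx in each fed and fasted sample (horizontal axis). Fed replicate 2 was below its group mean for all 4 genes, with deviations of -0.39 to -0.15, and so was fasted replicate 2, with -0.26 to -0.0086. Fed replicates 1 and 3 and fasted replicates 3, 5 and 8 were above for all 4, in part by very little (0.0018 for Pdhx in fasted replicate 5).

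By Pearson's r over the 8 samples, the pair with the highest value in each group was Pdha1 and Pdhb, both of E1. Over the 8 fed samples Pearson's r was 0.847 (exact permutation p = 0.0114) and Spearman's rho 0.643 (exact permutation p = 0.0962), and over the 8 fasted samples r was 0.837 (exact permutation p = 0.00618) and rho 0.833 (exact permutation p = 0.0154). Without the 2 samples farthest from the median of Pdha1, r was 0.818 in fed and 0.743 in fasted samples. Of 12 relations (6 pairs in each group), none passed adjustment, with a lowest adjusted exact permutation p of 0.0686 for r and 0.131 for rho. By Spearman's rho the highest fed value was that of Pdha1 and Pdhx (rho = 0.690, exact permutation p = 0.0694; r = 0.782, exact permutation p = 0.044), and r without 2 samples was 0.748 for them and 0.819 for Dlat and Pdhx. The relation of Pdhb and Pdhx in fed samples rested on fed replicates 1 and 2, with r = 0.803 (exact permutation p = 0.026; rho = 0.429, exact permutation p = 0.299) and r = -0.206 without them. The pair least alike was Dlat and Pdhx in fasted samples, with r = -0.334 (exact permutation p = 0.432) and rho = -0.190 (exact permutation p = 0.665), and r = 0.073 without 2 samples.

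The third enzyme of the complex and its other parts were described from a list of 3 genes. Dld, the E3 dihydrolipoyl dehydrogenase that pyruvate dehydrogenase shares with the related complexes, fell by 0.40 on the log2 scale (SE 0.070, limma adjusted p = 3.28e-04), with group means of 9.61 ± 0.11 and 9.20 ± 0.14 (SD, n = 8). Pdpr, the regulatory subunit of the phosphatase, had a difference of -0.12 (SE 0.071, limma adjusted p = 0.278). Pdha2, the testis form of E1 alpha, stood at 2.30 ± 0.10 and 2.36 ± 0.11 and was not called.

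The same architecture of E1, E2 and E3, with a kinase and a phosphatase for 1 of them, occurs in the 2-oxoglutarate and branched-chain ketoacid dehydrogenases, which allowed counterparts to be set side by side. Of 8 genes of these related complexes, 2 rose, 2 fell and 4 were not called, beside 8.49% and 10.7% of all genes that rose and fell; without the 3 samples 1 rose and 1 fell. The median difference was -0.034, against -0.65 for the 4 pyruvate dehydrogenase subunits and -0.0042 for all genes. Ogdh and Dlst, the E1 and E2 of 2-oxoglutarate dehydrogenase, had differences of -0.030 and -0.038, both short of the threshold. Ppm1k, the branched-chain phosphatase, rose 1.73-fold (0.79, SE 0.15), and its kinase Bckdk fell by 0.33 (SE 0.080). The calls of Bckdhb, the branched-chain E1 beta, with a difference of 0.32, and Dhtkd1, a 2-oxoadipate E1, with -0.23, were lost without the 3 samples (limma adjusted p = 0.0507 and 0.0581). The call of Bckdhb was also lost with the exact rank sum test. That of Dhtkd1 was lost with cyclic loess, a repeat of quantile normalization and array medians over all genes with 1 symbol subtracted. Leaving out single samples also ended both calls. For Bckdhb these were fed replicates 1, 2, 6 and 8 and fasted replicates 3, 5, 6 and 8, and for Dhtkd1 fed replicates 1, 3, 5 and 7 and fasted replicates 2, 4 and 6 (limma adjusted p up to 0.0672).

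The changes of the pyruvate dehydrogenase genes differed from those of their counterparts in all 8 pairs compared. These pairs were chosen after the values were seen, so their p-values are no independent support. Other pairs were not compared, among them Pdk3 with Bckdk (-0.28 and -0.33) and Pdha1 with Dhtkd1 (-0.45 and -0.23), in which both genes fell. Pdhb changed by 1.12 less than Bckdhb on the log2 scale, that is, it was lower by that much relative to it after fasting (SE 0.085, exact permutation adjusted p = 2.49e-04 over 8 pairs, two-sided, n = 8 per group). The same comparison gave -0.64 (SE 0.11) for Pdha1 against Bckdha and -0.42 (SE 0.076) for Pdha1 against Ogdh, with exact permutation adjusted p of 2.49e-04 and 6.22e-04. For the E2 enzymes it gave -0.53 (SE 0.066) for Dlat against Dlst and -0.44 (SE 0.16) for Dlat against Dbt, with exact permutation adjusted p of 2.49e-04 and 0.0200. Among the regulators, Pdk4 exceeded Bckdk by 3.65 (SE 0.13) and Pdk2 exceeded it by 1.69 (SE 0.082), both with exact permutation adjusted p = 2.49e-04. The phosphatases differed in the opposite sense, with Pdp1 at -0.65 against Ppm1k (SE 0.21, exact permutation adjusted p = 0.00888).

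**Figure D3:**
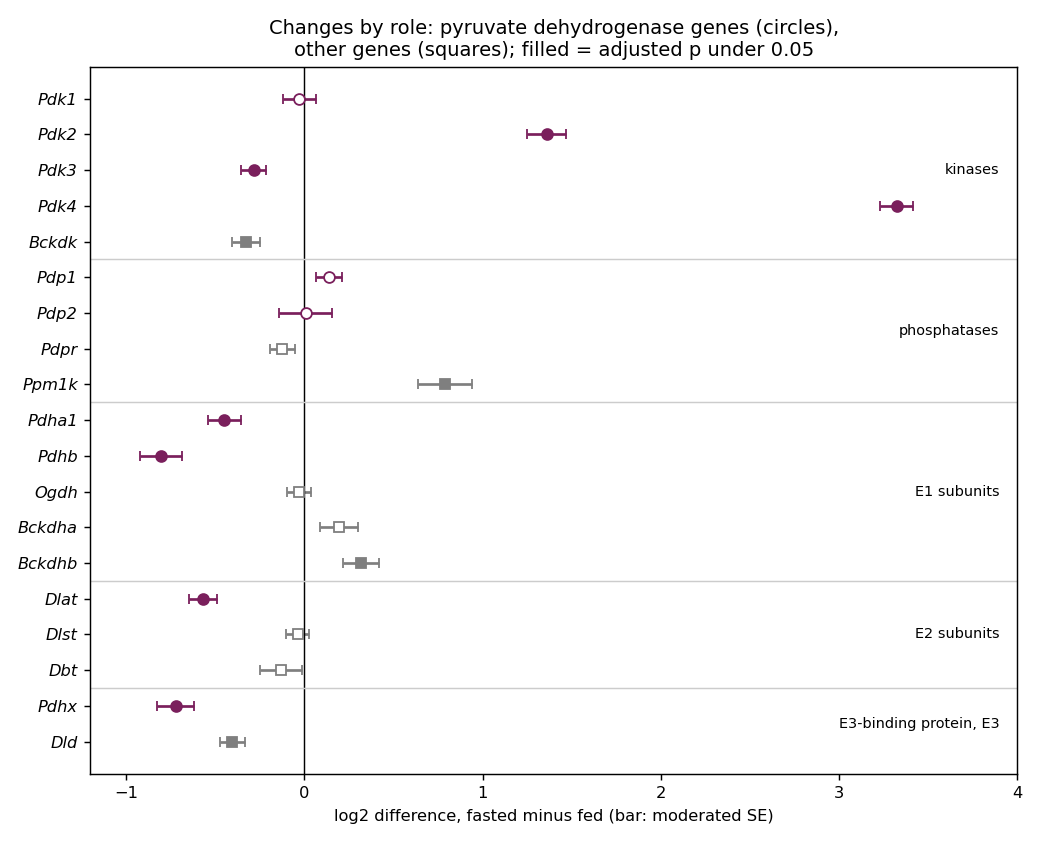
Log2 difference, fasted minus fed, with its moderated SE (horizontal axis) for the pyruvate dehydrogenase genes (circles) and other complex parts or counterparts in related complexes (squares), grouped by role; filled symbols passed an adjusted p of 0.05. The 4 subunits lie between -0.80 and -0.45, while Ogdh, Bckdha, Dlst and Dbt lie between -0.13 and 0.20. Dld, shared by the complexes, lies at -0.40 and Bckdhb at 0.32. Dhtkd1, with -0.23, is not shown.

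The genes around the complex were described from lists of other genes that handle pyruvate, acetyl-CoA and cofactors. Of 49 measured genes over all lists, 7 rose and 18 fell, or 5 and 17 without the 3 samples. Over all genes 8.49% rose and 10.7% fell, or 7.23% and 10.3% without the 3 samples. On the supply side, 7 of 13 measured genes fell, 1 rose and 5 were not called, with a median log2 difference of -0.24; without the 3 samples 7 fell and 0 rose. The fall of Gpt, the cytosolic alanine aminotransferase that links pyruvate with alanine, was the largest at 6.46-fold. Slc16a7, a carrier of pyruvate and lactate across the plasma membrane, fell 2.08-fold (8.28 ± 0.13 to 7.22 ± 0.22, SD, n = 8 per group, limma adjusted p = 1.06e-07). Me1, the malic enzyme that regenerates pyruvate in the cytosol and yields NADPH, fell 2.07-fold, and Mpc1, a subunit of the carrier that admits pyruvate to mitochondria, 1.45-fold (limma adjusted p = 0.0012). Mpc2 was not measured under a single symbol. Pcx, pyruvate carboxylase, and Pkm, the pyruvate kinase, were lower by 1.43-fold and 1.39-fold. The fall of Ldha, the lactate dehydrogenase A chain, was 1.18-fold, a call lost without fed replicate 1 or 7 (limma adjusted p = 0.0515 and 0.0516). The call of Ldha was also lost with cyclic loess, a repeat of quantile normalization and array medians over all genes with 1 symbol subtracted. With the replicate number as a block it was lost as well. Ldhb had a difference of 0.0051. The 1 rise, that of the mitochondrial malic enzyme Me3 (0.46, limma adjusted p = 0.0475), was lost without the 3 samples (0.0979) or without any 1 of 14 samples, all but fasted replicates 2 and 6 (up to 0.0967).

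Of 8 genes listed under acetyl-CoA use, not all of them downstream of the complex, 5 fell and 2 rose, with a median of -0.76. The counts were the same without the 3 samples. Acly, which cleaves exported citrate to cytosolic acetyl-CoA, fell 3.72-fold. Acss2, which makes acetyl-CoA from acetate, fell 3.08-fold, and Slc25a1, the citrate carrier, 2.35-fold. Cs, citrate synthase, and Acaca, the cytosolic acetyl-CoA carboxylase, fell 1.52-fold and 1.88-fold. Acacb, the acetyl-CoA carboxylase at mitochondria, rose 2.98-fold. Mlycd, which breaks down malonyl-CoA, rose 1.24-fold, a call lost without fed replicate 1, 2 or 6 or fasted replicate 6 or 8 (limma adjusted p up to 0.0605). The call of Mlycd was also lost with array medians over all probe sets subtracted.

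Of 6 measured cofactor genes 1 was called, with or without the 3 samples, beside 19.2% of all genes. Slc19a2, a thiamine transporter, rose 1.65-fold (5.40 ± 0.22 to 6.13 ± 0.19, SD, n = 8 per group, limma adjusted p = 3.14e-05), and its groups did not overlap. Thiamine is the precursor of the cofactor of all the E1 enzymes named here. Lias, Lipt1 and Lipt2, which make and attach the lipoic acid of the E2 enzymes, had differences of 0.13, -0.021 and 0.049, none of them called.

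**Figure D4:**
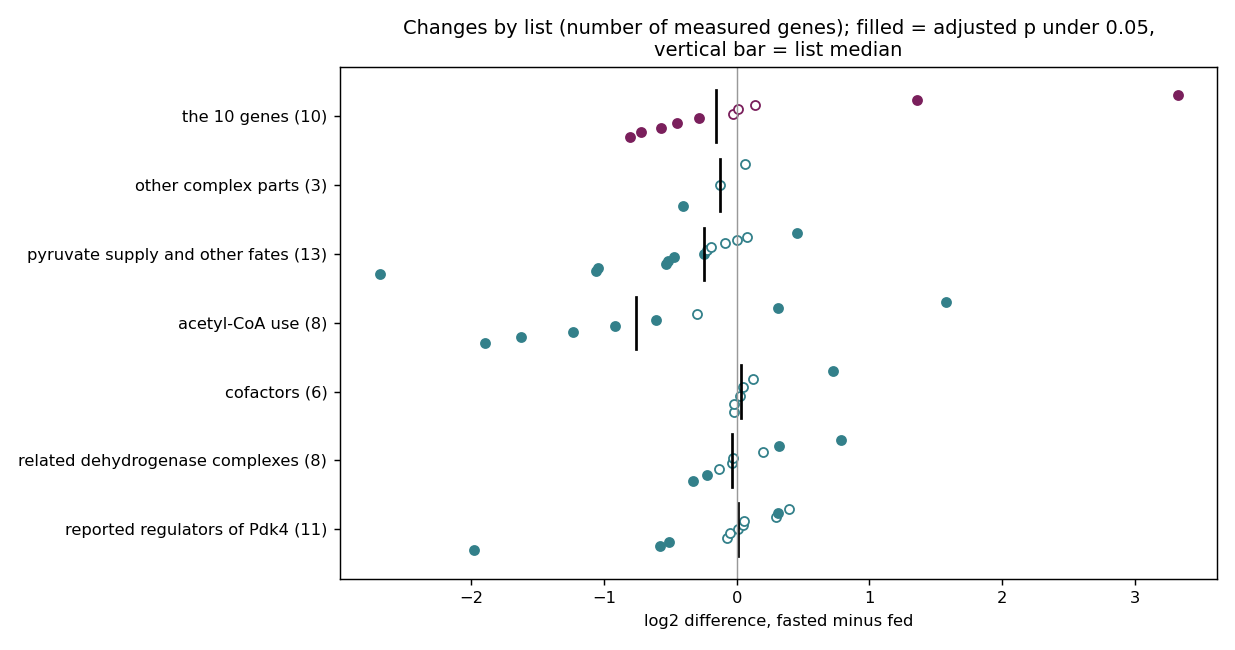
Log2 difference, fasted minus fed (horizontal axis), of each measured gene by list, with filled points for genes past an adjusted p of 0.05 and a vertical bar at each list's median. The medians were -0.16 for the 10 genes, -0.24 for pyruvate supply and -0.76 for acetyl-CoA use.

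A further list held transcription factors and coactivators that are reported to act on Pdk4. Of its 11 genes 1 rose, 3 fell and 7 were not called, with a median of 0.0072, and the counts of 1 and 3 were the same without the 3 samples, beside 8.49% and 10.7% of all genes. Foxo3, a forkhead factor restrained by insulin, rose by 0.31 (SE 0.084, limma adjusted p = 0.0131), while Foxo1 and Foxo4 had differences of -0.074 and -0.049. Nr3c1, the glucocorticoid receptor, fell by 0.58 (SE 0.056, limma adjusted p = 5.00e-07) with no overlap between groups, and Esrra, an orphan receptor that drives mitochondrial genes, by 0.51 (SE 0.14), a call lost with the exact rank sum test. Srebf1, the lipogenic factor, fell 3.94-fold. Ppara, Ppard and Pparg, receptors for fatty acids, had differences of 0.056, 0.048 and 0.0072, and their coactivator Ppargc1a 0.39 (SE 0.19, limma adjusted p = 0.194). Transcript levels do not show the activity of these factors.

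Within groups, the genes whose sample-to-sample pattern was most like that of Pdk4 were sought over all genes, as Pearson's r of the deviations from the group means over the 16 samples. The 5 with the highest r were Tnfrsf11a (0.836), Cyp2b23 (0.833), Tnp1 (0.828), Mir3970 (0.813) and Gpr22 (0.810). Of these, 4 had group means under 3 on the log2 scale and Tnfrsf11a had means of 4.92 and 4.73. None of the 5 was called between fed and fasted samples (limma adjusted p from 0.163 to 0.983). With 22180 genes and 16 samples, r of this size is given as a description of these samples only. Among the 10 genes, the r of Pdk4 with the others, computed in the same way, lay between -0.447 (Pdk2) and 0.281 (Pdp2).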

How the data were processed

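Gonadal white adipose tissue RNA of 8 fed and 8 fasted samples was measured on Affymetrix arrays. The authors deposited log2 values after RMA, per the submitters' processing notes. The software version is not given in the sources used here. A range of 0.99 to 13.2 fits a log2 scale. No batch was given in the labels, and the number of arrays limits the precision.

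Of 41345 probe sets, 23521 had 1 symbol, and the probe set with the highest mean per gene left 22180 genes. The test was limma's moderated test (version 3.58.1, R 4.3.3), two-sided, with Benjamini-Hochberg adjustment over all genes and no further normalization or filter. The fit was tested on simulated data. Pairs of genes were compared by an exact permutation test of per-array differences over 12870 reassignments. Figures used matplotlib 3.10.9 in Python 3.11.15. Promoters came from RefSeq, build GRCm38.p6, with entries for 9 of the 10 genes. Pdk1 and Pdk2 had 2 entries each, and the one nearest the outermost start of the gene was used. The CCAAT and GC box motifs, and the pairs of subunits and counterparts, were added after seeing the data.

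The 10 genes, the pathway and marker lists and the 3 samples were chosen with earlier results of these data known. Beyond the 10 genes, up to 4 called genes with the largest change per pathway list were to be named, and the 5 most like Pdk4; other genes of these lists were named after their values were seen. The processing was also varied through removal of dim genes, other normalizations, variance settings, array weights, probe set choice, an exact rank sum test, the replicate number as a block, and samples left out.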

Additional observations from a re-analysis of the deposited data

Results flagged for a closer look

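Over 28 genes in 2 groups (56 sets of 8 samples), 1 value stood far from the others of its group: Gpt in fed replicate 2, at 7.38 on the log2 scale, below the next sample at 7.89 and the highest at 8.20. The gap was 0.624 of the group's range, above Dixon's 95% critical value for 8 samples. Chance gives about 1 such value in 20 sets. None of the 10 pyruvate dehydrogenase genes had a value of this kind.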

How the results depend on the processing

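The 7 called genes of the pyruvate dehydrogenase group, 2 higher and 5 lower, were called in the same direction under every alternative run, including each of 16 samples left out in turn. The differences of Pdk4 stayed between 3.26 and 3.38 and of Pdk2 between 1.31 and 1.46 on the log2 scale, and those of Pdhb between -0.87 and -0.73. The sign of Pdk1, which was not called, turned to 0.019 with cyclic loess and 0.029 with a repeat of quantile normalization. It also turned, to 0.012, with array medians over all genes with 1 symbol subtracted, an alternative chosen after seeing the data. Without the 3 samples the difference of Pdk1 was 0.050, and it ran from -0.071 to 0.012 with single samples left out. The sign of Pdp2, also not called, turned to -0.017 with array medians subtracted, -0.00031 with array weights and -0.024 without the 3 samples, and ran from -0.070 to 0.098 with single samples left out. The cause was not tested. Over all genes, 2766 were called at an adjusted p under 0.01 against 4251 at 0.05. Higher calls made up 44.3% of these 4251, but 37.7% of 4247 with array medians over all probe sets subtracted. With array medians over all genes with 1 symbol subtracted, they made up 54.7% of 3817. In each case the median of all genes moved by less than 0.1. Between 21 and 27 of 49 pathway genes were called under the alternatives, against 25. Acss1 and Cebpb, not called (limma adjusted p = 0.0519 and 0.0508), were called without any 1 of 4 and 6 samples. With all samples kept, both were called with dim genes removed and with other variance settings. Acss1 was also called with array medians over all probe sets subtracted and with array weights. Cebpb was also called with cyclic loess, a repeat of quantile normalization and array medians over all genes with 1 symbol subtracted. With the replicate number as a block, 3829 genes, 7 of the 10 genes and 23 pathway genes were called. Same-numbered samples correlated in their deviations by -0.216 to 0.218, over 0.1 in 2 of 8 pairs, and 2 of 8 fed samples were most like their own number, so the numbers were not taken to pair the samples.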
